A study of Mus musculus with 17 samples.

Results

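Bone marrow macrophages (BMMs) of Bap1LysM mice were compared with those of Bap1flox mice by RNA-seq before any exposure to RANKL. The libraries were chosen by their titles and their treatment label, which is M-CSF alone, and number 6 of the 17 in the series, with 3 of each genotype. Bap1flox mice carry loxP sites in both copies of Bap1 and no Cre. Bap1LysM mice carry the same sites and a Cre transgene placed in Lyz2, the gene of lysozyme M, which is active in the myeloid lineage. The study's methods give them as LysMCre+/-, with the insertion in 1 copy of Lyz2, which interrupts that copy. The shared background of both groups is therefore the floxed Bap1 gene and culture in M-CSF, and the groups differ in the Cre insertion and in the deletion it drives. Because all of the Bap1flox libraries lack the insertion, effects of Bap1 loss and of Cre or of the interrupted Lyz2 copy cannot be told apart. Age and sex of the mice are not given in the labels of the BMM libraries, and the study describes the mice of its osteoclast RNA-seq as male. The labels do not say that the 3 libraries of a group came from separate animals, so p-values measure the spread between these libraries. The other 11 libraries are osteoclast precursors (preOCs) of both genotypes, cultured for 24 h with RANKL at 100 ng/ml, and are used below for comparison with the BMM values.

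BAP1 is a deubiquitinase that removes ubiquitin from histone H2A, the mark that Polycomb repressive complex 1 places, and it works bound to an ASXL protein. Macrophages grown from marrow in M-CSF, the ligand of the receptor Csf1r, proliferate and express RANK, the receptor encoded by Tnfrsf11a, through which RANKL later drives osteoclast formation. The comparison asks which transcripts already differ in these precursor cells.

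The 6 libraries held 44684670 to 54195199 counts. Mitochondrially encoded genes took 0.501% to 1.02% of them and ribosomal protein genes 2.19% to 2.70%, with no separation of the genotypes. The macrophage label fitted the data: Csf1r stood at 2683 to 4317 CPM (counts scaled to a common library size with TMM factors) and Adgre1, which encodes F4/80, at 1508 to 2257. Summed over 10 macrophage markers the level ran from 10808 to 13221 CPM in Bap1flox and from 9870 to 12351 CPM in Bap1LysM BMMs. Haemoglobin genes were near 0. Xist, a transcript of the inactive X of females, was at no more than 0.065 CPM in any of the 6 libraries. The Y-linked gene Ddx3y was at 47.7 to 72.7 CPM, so all 6 read as male.

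Bap1 (chr14:31251450-31259944, + strand, GRCm38) stood at 83.3, 81.2 and 84.2 CPM in Bap1flox BMM replicates 1, 2 and 3 and at 80.9, 74.8 and 75 CPM in Bap1LysM BMM replicates 1, 2 and 3. All of the Bap1LysM libraries lay below all of the Bap1flox libraries, by a small margin. The log2 fold change, here always Bap1LysM over Bap1flox, was -0.11 ± 0.07 (SE, n = 3 per group, adjusted p = 0.34 in edgeR's quasi-likelihood test). Counts summed over a whole gene do not separate the deleted exons from the rest of the transcript, so this level does not check the deletion.

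Lyz2 (chr10:117277334-117282274, - strand), the gene that holds the Cre insertion, was at 21841, 19304 and 19774 CPM in Bap1flox BMMs. In Bap1LysM BMMs it was at 9189 CPM in replicate 1 and at 34.3 and 29.8 CPM in replicates 2 and 3. Replicate 1 thus stands apart from the other Bap1LysM libraries, although all of them lie below the Bap1flox range. As a share of the Bap1flox mean, Lyz2 stood at 45.3%, 0.169% and 0.147% in Bap1LysM replicates 1, 2 and 3. The labels do not give the copies of the insertion per library, and whether these differ was not tested, which limits what the Bap1LysM group stands for. With the 3 libraries of each group the log2 fold change was -2.72 ± 1.93 (adjusted p = 0.40), and without Bap1LysM replicate 1, which was set apart for this level, it was -9.31, given as a description. The neighbouring gene Lyz1, which encodes lysozyme P, was also highest in replicate 1 among the Bap1LysM libraries: 672, 571 and 605 CPM in Bap1flox and 343, 65.0 and 85.6 CPM in Bap1LysM BMMs. Its log2 fold change was -1.91 ± 0.61 (adjusted p = 0.11, 0.024 in a fit blocked on replicate number), and -3.03 without Bap1LysM replicate 1. Why replicate 1 differs was not tested, and counts of called genes below are therefore given with and without it.

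The coding sequences of both lysozyme genes are shown because reads from one could be counted for the other. Over 444 coding bases they differ at 22, an identity of 95%. The first 150 coding bases from GENCODE M21 on GRCm38, 5′ to 3′ from the start codon, hold 14 of these differences, in capitals:
Lyz1: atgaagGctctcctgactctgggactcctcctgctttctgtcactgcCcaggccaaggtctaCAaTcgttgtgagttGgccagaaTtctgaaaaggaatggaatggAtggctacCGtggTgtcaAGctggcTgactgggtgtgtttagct
Lyz2: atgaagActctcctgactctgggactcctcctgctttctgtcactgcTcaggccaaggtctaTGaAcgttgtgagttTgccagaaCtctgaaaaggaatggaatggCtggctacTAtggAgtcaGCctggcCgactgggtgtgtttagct
Of the 1114 windows of 150 bases in the Lyz1 transcript, 0 are identical to a stretch of the Lyz2 transcript, against 24 of 1164 windows of 100 bases and 195 of 1214 windows of 50 bases. How much of the Lyz1 level in these libraries came from Lyz2 reads was not tested.

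**Figure D1:**
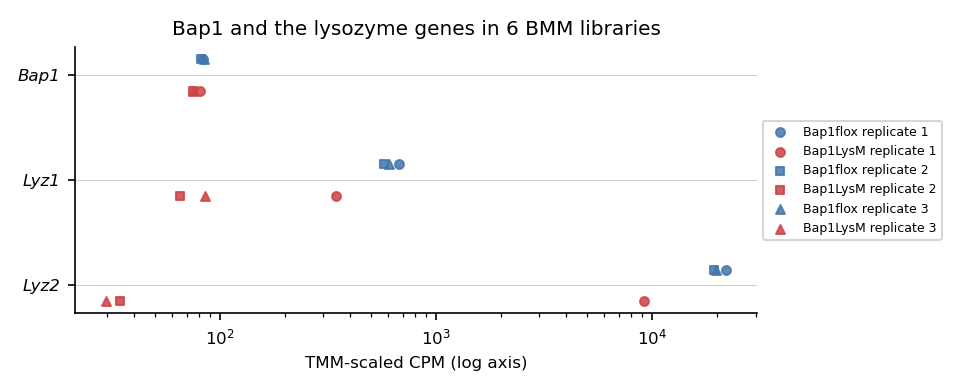
TMM-scaled CPM (log axis) of Bap1, Lyz1 and Lyz2 in each of the 6 BMM libraries, with Bap1flox in blue and Bap1LysM in red and a marker shape for each replicate number. Bap1 is nearly level, while for Lyz2 Bap1LysM replicate 1 lies at 9189 CPM and replicates 2 and 3 near 30 CPM.

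Of 13028 genes tested, 693 (5.32%) passed an adjusted p of 0.05 (called genes, below): 171 (1.31%) were higher and 522 (4.01%) lower in Bap1LysM BMMs. At a fold change of at least 2, 49 were higher and 214 lower. All 693 called genes had groups that do not overlap, a pattern seen in 33.8% of all genes tested. The median log2 fold change over all genes tested was -0.01. The higher genes had a median mean level of 61.4 CPM and the lower genes of 15.6 CPM, against 21.9 CPM over all genes tested. In the annotation, genomic spans had a median of 37540 bases for higher genes, 19242 for lower genes and 20244 for all. The X chromosome held 13 of the 171 higher genes (7.60%) and 11 of the 522 lower genes (2.11%), against 3.52% of all genes tested.

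The count rests on few libraries. Without Bap1LysM replicate 1 there were 367 called genes (2.82% of those tested), 63 higher (0.484%) and 304 lower (2.33%), of which 299 were among the 693. Without Bap1flox replicate 2 only 7 genes passed and without Bap1flox replicate 3 only 4. There were 84 without Bap1LysM replicate 2 and 298 without Bap1flox replicate 1. Without Bap1LysM replicate 3 the count was 756, with 268 higher and 488 lower. All 693 genes kept their sign in each of these fits. Blocking on replicate number gave 2107 genes (16.2%), 712 higher (5.47%) and 1395 lower (10.7%), and all 693 were among them. Of the genes named below, Smpd5, Syngr3, Id1, Tgm1, Cox7a2, Pmvk, Ccr1, Cbx7, Cd300e, Abcd2, Kcnj10, Id3, Tnf, Gbgt1, P2ry12, Slc16a3, Atp6v1h, Vwf, Bmf, Igha, Pcgf2, Cox7b, Cyc1, Ift172, Tlr5, Sall2, Cd79b, Saa3, Epor, Gsta3, Mrc1, Wasf2, Ccng1, Btg2, Igkc, Bckdha, Tnfrsf11a, Cd80 and Tmem119 lost their call without Bap1LysM replicate 1. Their adjusted p then ran from 0.0501 for Smpd5 to 0.105 for Tmem119, and their sign was kept. The study's own test, voomWithQualityWeights, called 721 genes higher (5.53%) and 1051 lower (8.07%).

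**Figure D2:**
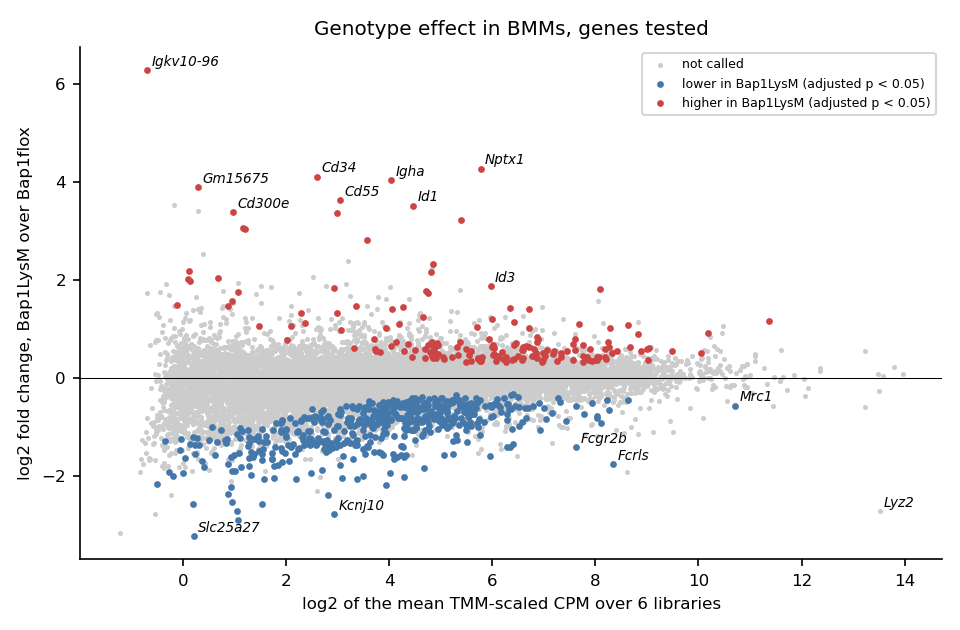
Log2 fold change (Bap1LysM over Bap1flox) against the log2 of the mean TMM-scaled CPM over 6 BMM libraries, with a point for each of the 13028 genes tested. Called genes lie on both sides, with 171 higher (red) and 522 lower (blue), and Lyz2, the most abundant gene with a large difference, is not called.

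To see whether Bap1LysM replicate 1 resembled the other Bap1LysM libraries beyond Lyz2, genes were called without it at a fold change of at least 2 (191 genes, 26 higher and 165 lower, 1.47% of those tested). Its difference from the Bap1flox mean was then divided, on the log2 scale, by that of replicates 2 and 3, so that 0 means level with Bap1flox and 1 level with the other Bap1LysM libraries. The median was 0.82, with the middle 50% of genes between 0.61 and 1.04. In 186 of the 191 genes replicate 1 lay beyond all of the Bap1flox libraries on the same side as replicates 2 and 3. The same measure gave a median of 0.97 for replicate 2, at 60 genes (0.461%) called without it, and of 0.70 for replicate 3, at 287 genes (2.2%) called without it. Replicate 2 lay beyond the Bap1flox libraries on the same side in 60 of its 60 genes and replicate 3 in 279 of its 287, so exceptions were not particular to replicate 1. These are descriptions, and the 3 gene sets differ.

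The exceptions in replicate 1 were 5 genes, named after their values were seen. Sgsm1 lay inside the Bap1flox range in replicate 1, with 0.074, 0.195 and 0.156 CPM in Bap1flox and 0.141, 2.96 and 1.82 CPM in Bap1LysM BMMs. Itgax, which encodes the integrin CD11c, was at 28.7, 20.6 and 21.2 CPM in Bap1flox against 59.6, 9.73 and 11.6 CPM in Bap1LysM BMMs. Mmp12, a macrophage elastase, was at 306, 225 and 228 CPM against 708, 78.7 and 89.4 CPM. In both genes replicate 1 is the highest of the 6 libraries while replicates 2 and 3 are the lowest. Their log2 fold changes were 0.20 and 0.21 with all 3 libraries (adjusted p = 0.87 and 0.89) and -1.14 and -1.59 without replicate 1 (adjusted p = 0.047 and 0.021). Clec7a, which encodes the β-glucan receptor dectin-1, had 25.4, 22.8 and 24.7 CPM against 33.3, 5.91 and 7.64 CPM. Slc28a2, a nucleoside transporter gene, had 17.1, 19.7 and 19.4 CPM against 19.7, 7.56 and 8.12 CPM, so that replicate 1 stood at the top of the Bap1flox range.

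Interferon-stimulated genes were mostly highest in replicate 1. Of 49 tested, 44 had their highest level of the 6 libraries in Bap1LysM replicate 1, against 2761 of all 13028 genes. Their summed level was 3523, 3765 and 3639 CPM in Bap1flox BMMs and 8338, 3105 and 4297 CPM in Bap1LysM BMMs. Irf7, a transcription factor of the interferon response, was at 245, 313 and 296 CPM against 1190, 242 and 455 CPM. The median log2 fold change over the list was 0.44 with all libraries and -0.01 without replicate 1, and 0 of the 49 genes were called in either fit.

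**Figure D3:**
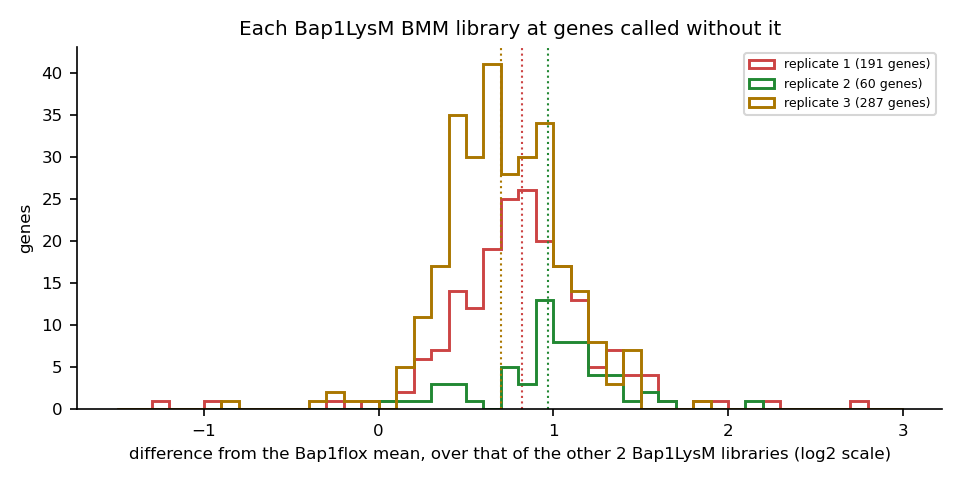
Histograms of the position of each Bap1LysM BMM library at genes called without it at a fold change of at least 2. The x axis is its difference from the Bap1flox mean over that of the other Bap1LysM libraries on the log2 scale (0 is the Bap1flox mean, 1 the other Bap1LysM libraries), the y axis counts genes, and dotted lines mark the medians of 0.82, 0.97 and 0.70 for replicates 1, 2 and 3.

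The genes with the largest differences are described next, as the 12 in each direction with the largest fold change among called genes. Nptx1, which encodes the secreted neuronal pentraxin 1 (chr11:119538719-119547753, - strand), stood at 8.82, 3.76 and 3.58 CPM in Bap1flox against 99.5, 149 and 64.3 CPM in Bap1LysM BMMs. The lowest Bap1LysM library was well above the highest Bap1flox library. Its log2 fold change was 4.27 ± 0.48 (adjusted p = 0.013). Cd34, a surface marker of haematopoietic progenitors and endothelium (chr1:194938821-194961292, + strand), was at 0.867, 0.779 and 0.350 CPM against 14.7, 14.2 and 5.67 CPM (log2 fold change 4.11 ± 0.50, adjusted p = 0.016). Kit, another progenitor gene, was at 0.554, 1.15 and 1.01 CPM against 0.401, 0.600 and 1.4 CPM and its groups overlapped. Cd55, which encodes decay-accelerating factor, an inhibitor of complement activation, was at 0.554, 1.41 and 1.77 CPM against 11.5, 9.73 and 24.7 CPM (3.62 ± 0.54, adjusted p = 0.022). The non-coding gene Gm15675, on the same strand 1835 bases beyond the 3′ end of Cd55, rose with it, from 0.037, 0.260 and 0.175 CPM to 1.37, 1.46 and 4.10 CPM (3.89 ± 0.72, adjusted p = 0.036).

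Lrrc4, a leucine-rich repeat adhesion protein gene, was almost equal in the 3 Bap1LysM libraries, at 14.7, 14.3 and 14.5 CPM, against 0.572, 1.95 and 1.71 CPM in Bap1flox BMMs (3.37 ± 0.42, adjusted p = 0.016). Jam2, which encodes a junctional adhesion molecule, was at 0.406, 0.736 and 0.370 CPM against 1.53, 6.71 and 4.12 CPM (3.04 ± 0.59, adjusted p = 0.040). Cd300e, an activating receptor gene of monocytes, was at 0.443, 0.389 and 0.195 CPM against 6.25, 3.21 and 1.34 CPM (3.38 ± 0.63, adjusted p = 0.036). Within Bap1LysM the spread of Jam2 and Cd300e between libraries was over 4-fold, with replicate 1 lowest for Jam2 and highest for Cd300e. Saa3, an acute-phase serum amyloid A gene, was at 4.06, 10.7 and 9.63 CPM against 120, 24.4 and 83.5 CPM (3.22 ± 0.64, adjusted p = 0.041, 0.074 without Bap1LysM replicate 1).

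Id1 and Id3 encode helix-loop-helix proteins without a DNA-binding region that hold back other helix-loop-helix factors, and both are classical targets of BMP receptors. Id1 (chr2:152736251-152737410, + strand) was at 1.94, 4.24 and 4.53 CPM in Bap1flox against 67.3, 40.9 and 14.4 CPM in Bap1LysM BMMs. Id3 was at 15.6, 31.8 and 33.4 CPM against 127, 90.7 and 77.5 CPM. For both genes replicate 1 was the lowest Bap1flox and the highest Bap1LysM library. The log2 fold changes were 3.52 ± 0.61 for Id1 (adjusted p = 0.032) and 1.87 ± 0.32 for Id3 (adjusted p = 0.030), and without Bap1LysM replicate 1 they were 2.95 and 1.64 (adjusted p = 0.052 and 0.060).

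The other leading higher genes belong to antibody production. Igha, the heavy chain of immunoglobulin A, was at 0.351, 1.54 and 3.80 CPM in Bap1flox against 37.0, 33.9 and 22.5 CPM in Bap1LysM BMMs (4.04 ± 0.72, adjusted p = 0.033). Jchain, which joins immunoglobulin A and M into polymers, was at 0.258, 0.346 and 0.817 CPM against 4.64, 4.33 and 3.03 CPM (3.07 ± 0.45, adjusted p = 0.022). The light chain variable segment Igkv10-96 had 2 counts in all over the Bap1flox libraries and 169 over the Bap1LysM libraries, a ratio of 89.8 with an exact 95% interval of 24.5 to 747 for counting error alone. The light chain constant gene Igkc rose as well, from 1.22, 1.82 and 5.80 CPM to 24.8, 22.9 and 14.7 CPM (2.82 ± 0.58, adjusted p = 0.045). Ighm, the heavy chain of immunoglobulin M, was not called, at 109, 87.9 and 109 CPM against 30.0, 79.2 and 104 CPM. Of the 7 plasma cell markers tested, the 3 just named (Igha, Jchain and Igkc) were higher and 0 lower, where 1.31% of all genes were higher, and the list median was -0.32, against -0.16 without Bap1LysM replicate 1. Without Bap1LysM replicate 1 only 1 of them, Jchain, was called (adjusted p = 0.065 for Igha and 0.088 for Igkc). The plasma cell genes Sdc1 and Xbp1 were not called, and Sdc1 read 22.0, 29.0 and 34.6 CPM against 18.5, 16.3 and 20.1 CPM. Mzb1, a plasma cell and B cell gene, was at no more than 0.236 CPM and Tnfrsf17, the plasma cell receptor BCMA, at no more than 0.295 CPM in any of the 6 libraries, and the B cell genes Ms4a1 and Pax5 at no more than 0.216 CPM. In bulk samples a different number of cells of a type and a different amount of RNA per cell cannot be told apart.

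**Figure D4:**
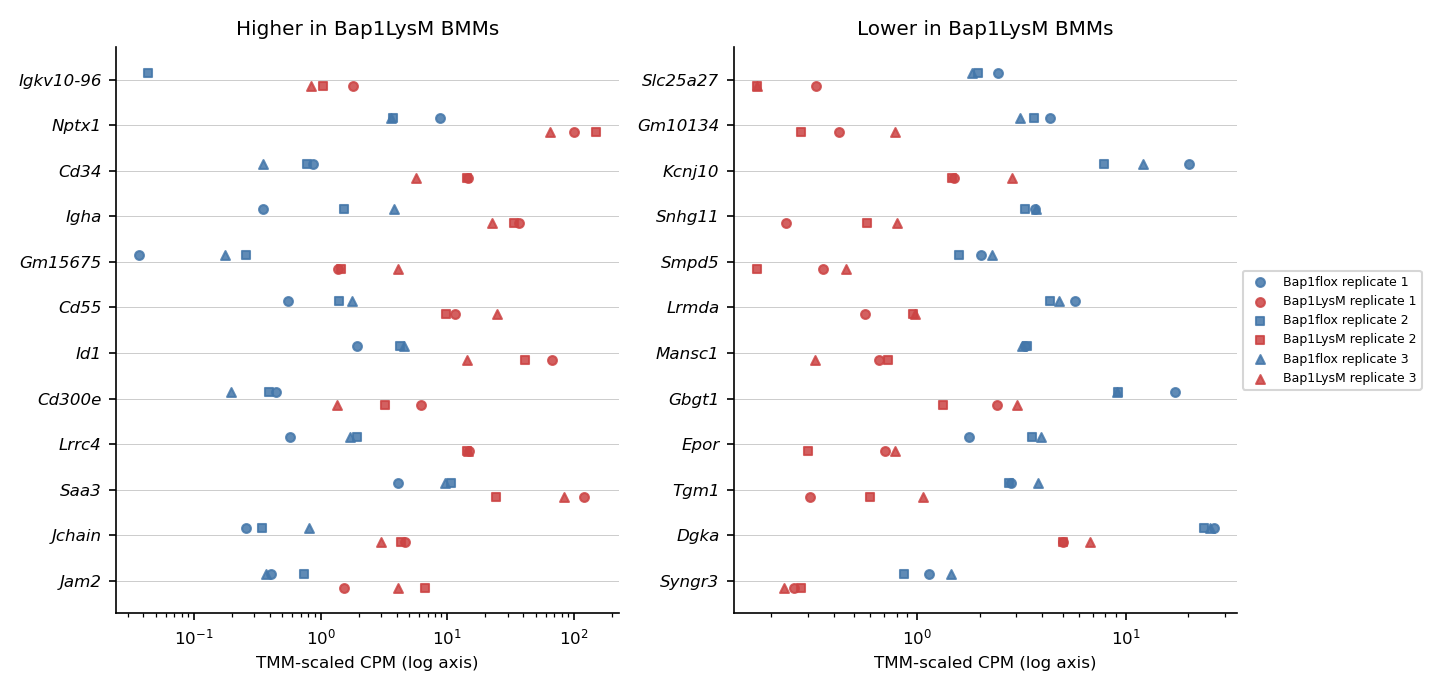
TMM-scaled CPM (log axis) in each BMM library for the 12 genes with the largest fold change among called genes in each direction, with Bap1flox in blue, Bap1LysM in red and a marker shape for each replicate number. The groups do not overlap for any of the 24 genes, and Igkv10-96 has points for only 1 Bap1flox library because the others have 0 counts.

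Among the 12 leading lower genes the smallest SE was that of Dgka, a diacylglycerol kinase gene (chr10:128720141-128744056, - strand), at 26.5, 23.7 and 25.5 CPM in Bap1flox and 5.02, 4.99 and 6.72 CPM in Bap1LysM BMMs. The log2 fold change was -2.17 ± 0.15 (adjusted p = 0.0049), and it passed the threshold in 5 of the 6 fits that leave out a library. Dgka overlaps Pmel on the opposite strand. Since use of strand in counting is not given in the sources used here, reads of the overlap may belong to either. Dgka also lies on the same chromosome as Lyz2 (chr10:117277334-117282274), the site of the Cre insertion. Whether DNA near that site differs between the groups was not tested. The largest fall was that of Slc25a27, which encodes the mitochondrial carrier UCP4, at 2.45, 1.97 and 1.83 CPM against 0.330, 0.171 and 0.172 CPM (-3.22 ± 0.34, adjusted p = 0.012). Kcnj10, an inward rectifier potassium channel gene, was at 20.1, 7.85 and 12.1 CPM against 1.51, 1.48 and 2.87 CPM (-2.77 ± 0.43, adjusted p = 0.024).

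Gbgt1, a glycosyltransferase of Forssman glycolipid synthesis, was at 17.3, 9.17 and 9.15 CPM in Bap1flox against 2.43, 1.33 and 3.01 CPM in Bap1LysM BMMs (-2.39 ± 0.39, adjusted p = 0.026). Gm10134, which starts 679 bases beyond the end of Gbgt1 on the same strand (chr2:28506095-28506475), fell with it, from 4.34, 3.66 and 3.13 CPM to 0.424, 0.279 and 0.785 CPM (-2.88 ± 0.39, adjusted p = 0.019). Lrmda, a gene of melanocyte differentiation, was at 5.74, 4.33 and 4.79 CPM against 0.566, 0.964 and 0.977 CPM (-2.56 ± 0.27, adjusted p = 0.012). In each of these genes the lowest Bap1flox library stood above the highest Bap1LysM library by more than 3-fold. The erythropoietin receptor gene Epor was at 1.77, 3.57 and 3.93 CPM against 0.707, 0.300 and 0.785 CPM (-2.36 ± 0.46, adjusted p = 0.041). The remaining 5 of the 12, with log2 fold changes from -2.71 to -2.17, were Snhg11, a small nucleolar RNA host gene, Smpd5, which overlaps Oplah on the opposite strand, Mansc1, the transglutaminase gene Tgm1 and the synaptic vesicle gene Syngr3. Most of these 12 genes are at a few CPM, and 10 of the 24 leading genes remained under a stricter filter, a mean of at least 5 CPM with more than 1 CPM in at least 3 libraries.

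Beyond the leading genes, 5 of 10 genes that macrophages share with microglia fell and 0 rose, where 4.01% of all genes fell. The list was assembled after its values were seen, its median log2 fold change was -0.93, and 2 of its genes were called without Bap1LysM replicate 1. Fcrls, an Fc receptor-like scavenger receptor gene, was at 573, 421 and 519 CPM in Bap1flox against 130, 157 and 159 CPM in Bap1LysM BMMs. The groups are far apart and replicate 1 is the lowest of the Bap1LysM libraries. Its log2 fold change was -1.76 ± 0.14 (adjusted p = 0.010). P2ry14, a receptor for UDP-glucose, was at 24.0, 15 and 15 CPM against 5.56, 3.54 and 4.41 CPM (-2.0 ± 0.26, adjusted p = 0.017). P2ry12, a receptor for ADP, the transcription factor gene Sall2 and the membrane protein gene Tmem119 fell by 0.89, 1.65 and 1.36 on the log2 scale (adjusted p = 0.033, 0.033 and 0.049).

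Of 34 macrophage genes, 2 fell, 0 rose, and the median log2 fold change was -0.02, where 4.01% of all genes fell. In the blocked fit 2 rose and 6 fell, where 5.47% and 10.7% of all genes did. Fcgr2b, the inhibitory Fc receptor for immunoglobulin G, was at 282, 271 and 309 CPM in Bap1flox against 119, 79.9 and 126 CPM in Bap1LysM BMMs (-1.41 ± 0.17, adjusted p = 0.016). Mrc1, the mannose receptor, was at 2152, 1873 and 1966 CPM against 1234, 1297 and 1527 CPM (-0.56 ± 0.12, adjusted p = 0.045). Siglec1, the sialoadhesin of resident macrophages, read 840, 1033 and 1050 CPM against 2332, 1356 and 1864 CPM, and did not pass (0.93 ± 0.21, adjusted p = 0.053, 0.038 with the replicate block). Its groups did not overlap.

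Of 11 genes of class II antigen presentation, 3 fell and 0 rose (median -0.30), where 4.01% of all genes fell, and 2 were called without Bap1LysM replicate 1. H2-DMa, a chain of the DM molecule that loads peptides, was at 30.6, 26.6 and 27.1 CPM in Bap1flox against 11, 9.66 and 11.1 CPM in Bap1LysM BMMs (-1.41 ± 0.11, adjusted p = 0.0091). Its partner H2-DMb1 was at 29.7, 30.0 and 28.1 CPM against 20.0, 12.5 and 14.8 CPM (-0.89 ± 0.18, adjusted p = 0.041), and the costimulatory ligand gene Cd80 fell by 1.06 (adjusted p = 0.043, 0.094 without Bap1LysM replicate 1). Both DM chains were thus lower in all 3 Bap1LysM libraries, H2-DMa more evenly. Among 22 inflammatory cytokine genes 1 rose and 1 fell (median -0.38), where 1.31% of all genes rose and 4.01% fell. Tnf was at 9.41, 12.5 and 8.31 CPM against 20.9, 19.0 and 21.9 CPM (1.03 ± 0.17, adjusted p = 0.027), and Il18 at 6.61, 6.45 and 5.80 CPM against 4.17, 3.04 and 3.22 CPM (-0.85 ± 0.18, adjusted p = 0.045). Of 24 chemokines and receptors, the receptor gene Ccr1 alone passed in the unblocked fit (-0.73 ± 0.12, adjusted p = 0.026). Of 26 pattern recognition receptors 2 fell, Mrc1 and the flagellin receptor gene Tlr5 (-1.30 ± 0.26, adjusted p = 0.042), and of 17 complement genes Cd55 passed. In the fit blocked on replicate number, 1 cytokine gene rose and 5 fell, 3 chemokine or receptor genes rose and 6 fell, 2 pattern recognition receptors rose and 7 fell, and 2 complement genes rose and 1 fell, where 5.47% and 10.7% of all genes rose and fell.

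Among 34 osteoclast genes 1 rose, Tnfrsf11a, which encodes RANK, and 0 fell (median 0.05), where 1.31% of all genes rose and 4.01% fell. Tnfrsf11a was at 85.8, 85.4 and 79.2 CPM in Bap1flox against 178, 161 and 108 CPM in Bap1LysM BMMs. Every Bap1LysM library was above every Bap1flox library, and replicate 1 was the highest. The log2 fold change was 0.84 ± 0.18 (adjusted p = 0.0499, 0.018 with the replicate block, 0.092 without Bap1LysM replicate 1). The genes of the master regulator NFATc1, of the β3 integrin and of cathepsin K were not called: Nfatc1 read 145, 106 and 115 CPM against 128, 119 and 128 CPM, Itgb3 8.45, 10.6 and 10.9 CPM against 13.7, 9.21 and 10.5 CPM, and Ctsk 3.40, 4.52 and 5.82 CPM against 11.5, 3.99 and 4.52 CPM. For Itgb3 and Ctsk replicate 1 was the highest library and the other Bap1LysM libraries lay within or beside the Bap1flox range. Of 38 genes of podosomes and actin, 1 rose, Wasf2, which encodes the WAVE2 regulator of branched actin (0.36 ± 0.08, adjusted p = 0.048), and 30 had a positive log2 fold change. In the fit blocked on replicate number, 3 osteoclast genes rose and 5 fell, and 7 genes of podosomes and actin rose and 2 fell, where 5.47% and 10.7% of all genes rose and fell.

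Since BAP1 acts on a Polycomb mark, its own complex and the Polycomb proteins were examined. Of 13 genes of the BAP1 complex 0 were called (median 0.13), and 2 rose with the replicate block, where 5.47% of all genes did. Its partner gene Asxl2 read 60.0, 47.1 and 49.2 CPM in Bap1flox and 83.0, 61.3 and 58.0 CPM in Bap1LysM BMMs (0.37 ± 0.16, adjusted p = 0.20, 0.037 with the replicate block). Of 37 Polycomb genes 5 fell and 0 rose (median -0.05), where 4.01% of all genes fell, and 4 of the 5 belong to Polycomb repressive complex 1. Without Bap1LysM replicate 1, 3 of the 37 were called, 2 of them of complex 1 (adjusted p = 0.057 for Cbx7 and 0.065 for Pcgf2). With the replicate block 2 of the 37 rose, both of complex 2, and 7 fell, 5 of them of complex 1. In that fit 5.47% of all genes rose and 10.7% fell. Cbx7, a chromodomain reader of methylated histone H3, was at 31.7, 22.9 and 26.4 CPM against 11, 7.41 and 12.7 CPM (-1.38 ± 0.22, adjusted p = 0.026). Cbx6, of the same family, was at 57.6, 64.0 and 55.9 CPM against 27, 34.2 and 30.5 CPM (-0.95 ± 0.11, adjusted p = 0.014). For both, the groups were well separated. Cbx6 shares its strand with the overlapping gene Npcd and Cbx7 overlaps Apobec3 on the opposite strand. Pcgf2, Bcorl1 and the complex 2 accessory gene Phf1 fell by 0.74, 0.75 and 0.91 (adjusted p = 0.034, 0.023 and 0.020).

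Hox genes are classical Polycomb targets, and the list read here also holds 3 genes of cofactors of Hox proteins. Of 42 genes listed, 15 passed the filter on low counts: 5 of the HoxA cluster, 1 of HoxB, 6 of HoxC, 0 of HoxD and the 3 cofactors. Of the 15, 0 were called and 14 had a negative log2 fold change, and the median was -0.86, against -0.51 without Bap1LysM replicate 1. Hoxa7 read 3.25, 3.83 and 3.44 CPM in Bap1flox and 1.27, 1.61 and 2.36 CPM in Bap1LysM BMMs (-1.0 ± 0.26, adjusted p = 0.074). With the replicate block 0 rose and 7 fell, 4 of HoxA, 1 of HoxB, 1 of HoxC and 1 cofactor gene, where 5.47% and 10.7% of all genes rose and fell. Among them were Hoxa7 (adjusted p = 0.037) and Hoxb4 (adjusted p = 0.030). Stromal cells also express Hox genes, and the summed level of stromal markers moved with these values, at 797, 3242 and 3730 CPM in Bap1flox and 553, 1335 and 1713 CPM in Bap1LysM BMMs. Of 9 stromal markers tested 0 were called in the unblocked fit and 6 were lower with the block (median -1.10, against -0.73 without Bap1LysM replicate 1). Col1a1, the main collagen of bone and fibroblasts, read 247, 1283 and 1465 CPM against 187, 528 and 678 CPM, and Cxcl12, a marrow stromal chemokine, 10.1, 103 and 122 CPM against 6.77, 27.7 and 47.5 CPM. Replicate 1 was the lowest library of each genotype for both, and the part of stromal RNA in the values of the Hox list was not tested.

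In glutathione metabolism, 2 of 38 genes rose and 4 fell (median -0.23), and of the 18 glutathione S-transferases among them 1 rose and 3 fell (median -0.48), where 1.31% of all genes rose and 4.01% fell. In the blocked fit 4 of the 38 rose and 11 fell, and of the S-transferases 1 rose and 8 fell, where 5.47% and 10.7% of all genes did. Gstm5 was at 6.26, 7.51 and 8.25 CPM in Bap1flox against 2.22, 1.78 and 1.28 CPM in Bap1LysM BMMs (-2.06 ± 0.24, adjusted p = 0.015). Gstm4 and Gstt3 fell by 1.13 and 1.16 (adjusted p = 0.018 and 0.016), and Oplah, which opens 5-oxoproline to glutamate, by 1.26 (adjusted p = 0.023). Gstt3 shares its strand with the overlapping gene Gm20441, so its counts are less certain. Gsta3 was at 36.2, 35.3 and 30.5 CPM against 69.4, 50.5 and 89.9 CPM (1.04 ± 0.20, adjusted p = 0.041), and the peroxidase gene Gpx1 at 426, 446 and 383 CPM against 545, 749 and 627 CPM (0.61 ± 0.13, adjusted p = 0.0499). Gstm4 and Gstm5 were thus lower and Gsta3 higher in all 3 Bap1LysM libraries. The study reports the cystine transporter gene Slc7a11 as raised in preOCs and also measured it by qPCR in BMMs. Here Slc7a11 read 9.63, 4.87 and 6.66 CPM against 12, 7.52 and 8.91 CPM. The groups overlapped, with a log2 fold change of 0.42 ± 0.29 (edgeR adjusted p = 0.37). It was higher in the Bap1LysM library of each replicate number, and the blocked fit gave 0.45 (adjusted p = 0.068). The glutathione synthesis genes Gclc (0.37 ± 0.13, adjusted p = 0.13) and Gss (-0.06 ± 0.21, adjusted p = 0.86) were not called either.

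Of 23 targets of the oxidative stress factor NRF2, Me1 alone passed (0.44 ± 0.09, adjusted p = 0.043), where 1.31% of all genes rose. The list median was 0.08. Of 23 genes of the ATF4 stress response, Vldlr alone passed (1.47 ± 0.20, adjusted p = 0.019; list median -0.10). Vldlr, a receptor for very low density lipoprotein, was at 4.67, 6.19 and 5.51 CPM in Bap1flox against 13.9, 12.3 and 19.0 CPM in Bap1LysM BMMs, with every Bap1LysM library more than 1.5-fold above every Bap1flox library. In iron handling and ferroptosis 1 of 20 genes fell and 0 rose, where 4.01% of all genes fell. It was Hfe, the haemochromatosis gene, at 131, 99.9 and 110 CPM against 50.6, 35.2 and 42.2 CPM (-1.41 ± 0.16, adjusted p = 0.013). In the fit blocked on replicate number, 5 NRF2 targets rose and 0 fell, 2 genes of the ATF4 response rose and 2 fell, and 4 of iron handling and ferroptosis fell, where 5.47% and 10.7% of all genes rose and fell.

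Nuclear genes of the respiratory chain had small and mostly positive values. Of 71, 61 had a positive log2 fold change, against 6391 of all 13028 genes tested, and the list median was 0.17. Of the 71, 3 passed, all higher, where 1.31% of all genes rose. The 3 were Cox7b, Cox7a2 and Cyc1, with log2 fold changes of 0.47 ± 0.08, 0.41 ± 0.07 and 0.44 ± 0.08 (adjusted p = 0.032, 0.032 and 0.034). Without Bap1LysM replicate 1, 0 of the 71 were called, with adjusted p of 0.065, 0.053 and 0.067 for these genes. In 36 of the 71 genes every Bap1LysM library lay above every Bap1flox library and in 0 below, where 16% of all genes tested lay above and 17.8% below. Their summed level was 5192, 5865 and 5615 CPM in Bap1flox and 5923, 6665 and 6405 CPM in Bap1LysM BMMs. The highest Bap1flox and lowest Bap1LysM sums thus nearly meet. With the replicate block 12 rose and 0 fell, where 5.47% of all genes rose and 10.7% fell. Of the 13 genes of mitochondrial DNA 0 were called, and their sum overlapped between groups, from 4560 to 9494 CPM in Bap1flox and from 6096 to 8811 CPM in Bap1LysM BMMs.

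In glycolysis 15 of 24 genes had a positive log2 fold change (median 0.13), and the summed level was 6689, 7781 and 7344 CPM in Bap1flox against 8030, 9563 and 8298 CPM in Bap1LysM BMMs, so that the sums did not overlap. Of the 24, 2 fell and 0 rose, where 4.01% of all genes fell, and with the replicate block 3 rose and 2 fell. The called genes of the unblocked fit were the phosphofructokinase gene Pfkm, at 34.0, 32.8 and 30.9 CPM against 18.5, 18.7 and 19.9 CPM (-0.77 ± 0.09, adjusted p = 0.012), and the lactate exporter gene Slc16a3 (-0.63 ± 0.11, adjusted p = 0.032). Degradation of branched-chain amino acids had 3 lower and 0 higher genes of 25 (median -0.25): Auh, Dbt and Bckdha, with Dbt and Bckdha encoding parts of the branched-chain ketoacid dehydrogenase, fell by 0.69, 0.65 and 0.59 (adjusted p = 0.021, 0.025 and 0.043). With the replicate block 6 of the 25 fell, where 10.7% of all genes did. Of 34 genes of fatty acid oxidation 2 fell and 0 rose, both of peroxisomes. Ehhadh, the peroxisomal bifunctional enzyme, was at 3.17, 4.05 and 3.02 CPM against 1.30, 0.793 and 0.843 CPM (-1.80 ± 0.27, adjusted p = 0.022). Abcd2, a peroxisomal fatty acid transporter gene, was at 37.4, 21.3 and 23.9 CPM against 10.4, 9.92 and 11.1 CPM (-1.39 ± 0.22, adjusted p = 0.024). Of 26 genes of cholesterol synthesis 1 fell, Pmvk (-0.62 ± 0.09, adjusted p = 0.023), and of 7 genes of cholesterol efflux and of 13 of mitochondrial biogenesis 0 passed. Among 47 lysosomal genes the cathepsin gene Ctsf fell, from 26.8, 22.8 and 27.6 CPM to 5.47, 5.83 and 8.95 CPM (-1.93 ± 0.21, adjusted p = 0.012), and the proton pump gene Atp6v1h rose (0.44 ± 0.08, adjusted p = 0.030). With the block 3 lysosomal genes rose and 2 fell, and 2 of cholesterol synthesis and 1 of cholesterol efflux fell. In that fit 5.47% of all genes rose and 10.7% fell, against 1.31% and 4.01% without the block.

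Genes of proliferation stood mostly higher in Bap1LysM BMMs but did not pass. Of 48 cell cycle genes 46 had a positive log2 fold change, with a median of 0.92 over 26 genes of the G1/S transition and replication and of 0.44 over 22 genes of G2 and mitosis, and 0 were called. With the replicate block 24 rose and 0 fell, 18 of them of the first group, where 5.47% and 10.7% of all genes rose and fell. Mcm5, a subunit of the replicative helicase, read 31.4, 58.2 and 44.7 CPM in Bap1flox and 101, 144 and 73.9 CPM in Bap1LysM BMMs (1.25 ± 0.30, adjusted p = 0.062, 0.015 with the block). Ccnd1, the D-type cyclin induced by M-CSF, read 77.9, 189 and 132 CPM against 416, 535 and 233 CPM (1.57 ± 0.40, adjusted p = 0.069, 0.024 with the block). For both genes the groups did not overlap. Bap1LysM replicate 2 was the highest of the 6 libraries for 45 of the 48 genes, against 2730 of all 13028 genes tested. Without this library the list median was 0.32 in place of 0.64. Mki67, a marker of cycling cells, read 170, 185 and 150 CPM against 153, 389 and 218 CPM with overlapping groups. Of 27 DNA repair genes 0 passed (median 0.48) and 11 rose with the block, and of 22 genes of ribosome biogenesis 0 passed (median 0.34). Of 7 inhibitors of cyclin-dependent kinases 0 passed, and Cdkn1b, which encodes p27, read 67.9, 49.1 and 56.7 CPM against 31.3, 35.5 and 43.0 CPM (-0.66 ± 0.16, adjusted p = 0.063, 0.040 with the block). Of 16 p53 targets Ccng1 rose (0.34 ± 0.07, adjusted p = 0.045) and the antiproliferative gene Btg2 fell (-0.90 ± 0.17, adjusted p = 0.041). In the unblocked fit 1.31% of all genes rose and 4.01% fell. Of 15 genes of the BCL2 family the death activator gene Bmf fell, from 49.3, 18.1 and 26.4 CPM to 10.3, 5.46 and 7.45 CPM (-2.01 ± 0.41, adjusted p = 0.043).

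Of 17 genes that the study names, 9 come from its heat map of genes lower in preOCs and 8 from elsewhere in the study. Of the 17, 3 fell in BMMs, Gbgt1, Ehhadh and Pcyt1b, and 0 rose, where 4.01% of all genes fell and 1.31% rose. In the blocked fit 1 rose and 5 fell, where 5.47% of all genes rose and 10.7% fell. The 3 genes called in the unblocked fit all belong to the 9 of the heat map. Of these 9, 1 had a positive log2 fold change in BMMs, and the median was -0.79. Pcyt1b, a gene of phosphatidylcholine synthesis, was at 9.10, 8.11 and 8.15 CPM in Bap1flox against 4.79, 4.69 and 4.75 CPM in Bap1LysM BMMs (-0.83 ± 0.13, adjusted p = 0.023). The Bap1LysM libraries were almost equal. Gatm, which begins creatine synthesis, read 42.0, 60.8 and 53.7 CPM against 46.8, 48.3 and 39.8 CPM in BMMs (-0.22 ± 0.15, adjusted p = 0.39) and fell by 2.6 in preOC replicates 4 to 6. Fabp7 read 0.480, 1.04 and 1.48 CPM against 6.08, 1.26 and 1.38 CPM, with only replicate 1 above the Bap1flox range.

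Other cell types could be present in BMM cultures, and their markers were read in the same fit. Neutrophil genes summed to 262 to 331 CPM in Bap1flox and 293 to 397 CPM in Bap1LysM BMMs, and 0 of 15 were called (median 0.62). Dendritic cell genes summed to 225, 296 and 280 CPM against 528, 244 and 318 CPM, with replicate 1 highest and 0 of 4 called. Of 4 endothelial genes Vwf alone passed, at 36.5, 28.6 and 28.2 CPM against 13, 19.6 and 17.8 CPM (-0.89 ± 0.18, adjusted p = 0.044), and of 3 B cell genes Cd79b (-1.05 ± 0.20, adjusted p = 0.036). Of 7 progenitor genes Cd34 alone passed, while 2 had a positive log2 fold change and the median was -0.10. Of 11 erythroid and 10 T and NK cell genes 1 each was tested. Over all genes tested 1.31% rose and 4.01% fell. For the following lists the sums did not overlap between the groups. Endothelial genes summed to 36.0 to 41.1 CPM in Bap1flox and 20.3 to 25.6 CPM in Bap1LysM BMMs. Megakaryocyte genes, of which Vwf is also one, summed to 503 to 789 CPM against 285 to 384 CPM, and 0 of the 6 tested had a positive log2 fold change. Genes of T and NK cells summed to 8.85 to 11.8 CPM against 1.03 to 3.16 CPM. Erythroid genes summed to 2.36 to 4.46 CPM against 0.514 to 1.13 CPM. B cell genes summed to 17.7 to 30.4 CPM against 9.83 to 11.6 CPM, and 0 of the 3 tested had a positive log2 fold change. Progenitor genes summed to 143 to 157 CPM against 124 to 131 CPM. In all of these lists the sums were lower in Bap1LysM BMMs. Their part in the differences above was not tested.

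The genes called in BMMs were then read in preOC replicates 4 to 6, which are separate libraries with 3 of each genotype. Of the 693 genes 659 were measured there, 555 (84.2%) had the same sign and 363 (55.1%) also passed with that sign, where 33.8% of all 12728 genes tested in these preOCs passed, 15.8% higher and 18% lower. Of all 12196 genes tested in both comparisons 54.2% had the same sign. Without Bap1LysM replicate 1 in the BMM fit, 311 of the 349 measured called genes (89.1%) kept the sign and 240 also passed. Among the leading genes, Nptx1 was higher in preOCs as well by 2.76 ± 0.11 (adjusted p = 3.7e-06), Cd55 by 2.94 ± 0.12 (adjusted p = 3.7e-06), Lrrc4 by 3.44 ± 0.23 (adjusted p = 5.1e-05) and Cd34 by 2.75 ± 0.26 (adjusted p = 2.0e-04) on the log2 scale. Igha and Jchain were higher by 4.35 and 4.63 (adjusted p = 3.2e-05 and 9.3e-05). Mansc1 and Gstm5 were lower by 3.64 and 2.97 (adjusted p = 2.6e-04 and 8.8e-05). Lyz2 was lower by 8.09 there (adjusted p = 2.7e-06).

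Other BMM differences were not called in preOC replicates 4 to 6. Id1 and Id3 had log2 fold changes of 0.60 ± 0.36 and 0.49 ± 0.30 in preOC replicates 4 to 6 (adjusted p = 0.22 and 0.23), H2-DMa of 0.10 ± 0.12 (adjusted p = 0.56), Cbx7 of 0.02 ± 0.11 (adjusted p = 0.91), Fcrls of -0.46 ± 0.34 (adjusted p = 0.33) and Bmf of 0.04 ± 0.14 (adjusted p = 0.85). In preOC replicates 1 to 3, with 3 Bap1flox and 2 Bap1LysM libraries, the log2 fold change was 1.37 for Id1, 0.61 for Id3, -0.78 for H2-DMa, -0.03 for Cbx7, -1.01 for Fcrls and -0.42 for Bmf. The interaction of genotype and RANKL in replicates 1 to 3 had an edgeR adjusted p of 0.33 to 0.36 for these 6 genes. The cell cycle list, mostly positive in BMMs, had a median of -0.49 in preOC replicates 4 to 6. There 40 of its 48 genes fell and 0 rose, where 18% of all genes fell and 15.8% rose. For Mcm5 the values were 1.25 ± 0.30 in BMMs and -0.82 ± 0.10 in preOCs (adjusted p = 5.1e-04). Interferon-stimulated genes had a median of -0.60 in these preOCs, with 23 lower and 2 higher of 49. The deposited files of preOC replicates 4 to 6 are named in another pattern than those of replicates 1 to 3, and no BMM library carries these numbers. Whether they were prepared with the BMM libraries is not given in the sources used here, so a change with RANKL and a change between preparations cannot be told apart.

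**Figure D5:**
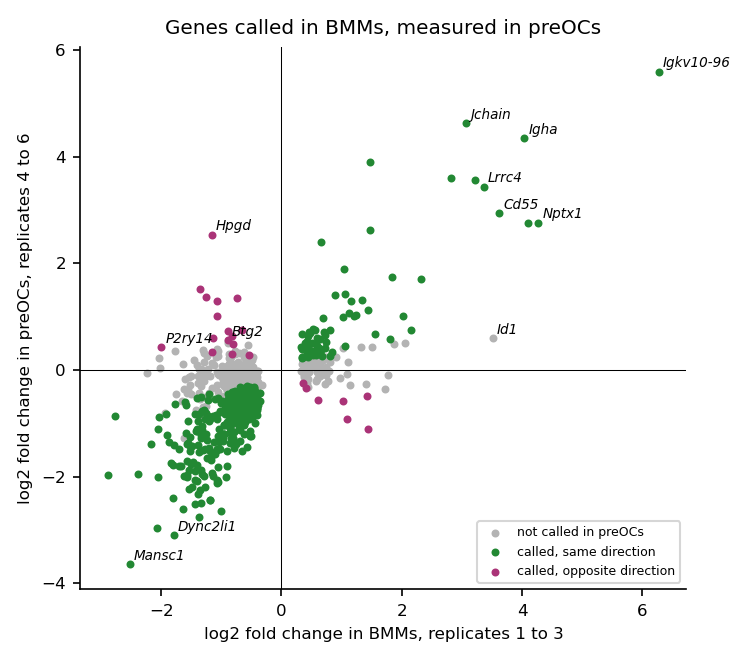
Log2 fold change (Bap1LysM over Bap1flox) in preOC replicates 4 to 6 against that in BMM replicates 1 to 3 for the 659 called BMM genes measured in both. Green points (363 genes) passed in preOCs with the same sign, purple points (23 genes) passed with the opposite sign, and grey points did not pass.

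Replicates 1 to 3 hold both cell stages in 11 libraries, and there the interaction of genotype and RANKL tests the difference itself. Of 13637 genes 0 (0%) passed in edgeR, with 1718 at an unadjusted p under 0.05, and 0 passed with the replicate block, in voomWithQualityWeights or without Bap1LysM replicate 1, with 2217, 873 and 2219 genes at an unadjusted p under 0.05. The smallest adjusted p values of these fits were 0.10, 0.097, 0.23 and 0.054. The smallest p belonged to Cdc42bpg, a kinase gene of the Cdc42 pathway, at 42.1, 45.5 and 47.2 CPM in Bap1flox and 24.9, 24.3 and 26.9 CPM in Bap1LysM BMMs (-0.82 ± 0.09 in BMMs, adjusted p = 0.012), followed by Gm1673, at 12.2, 13.9 and 14.9 CPM against 2.73, 3.49 and 3.79 CPM (-2.03 ± 0.17, adjusted p = 0.010). Both are clearly separated in BMMs. Among the 10 genes with the smallest interaction p were also Setd7, a lysine methyltransferase gene, at 143, 108 and 114 CPM against 45.2, 46.9 and 51.6 CPM (-1.34 ± 0.12, adjusted p = 0.010), and Pla2g5, a secreted phospholipase gene, at 0.295, 0.433 and 0.448 CPM against 1.53, 2.12 and 1.69 CPM (2.18 ± 0.29, adjusted p = 0.018). With 0 genes past the threshold, these data do not show a genotype difference that depends on RANKL, nor that none exists.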

How the data were processed

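RNA of BMMs was sequenced after oligo-dT selection, and the reads were aligned to GRCm38 with STAR 2.5.1a and counted per gene with featureCounts 1.4.6-p5, per the labels and the study's methods. The authors deposited a count, a CPM and an RPKM value per gene. The deposited counts are whole numbers and not normalized, and only they were tested. The deposited CPM and RPKM values were checked to follow from the counts, totals and gene lengths, and were not used further. Read strand in counting is not given in the sources used here. Replicates were not pooled.

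Of 41388 genes, 40340 had a symbol in GENCODE M21, and 355 ribosomal RNA genes were left out. A gene was tested where its CPM exceeded 1 in 2 or more of the 6 BMM libraries. The test was that of edgeR 4.0.16 under R 4.3.3 (TMM factors, quasi-likelihood test, Benjamini-Hochberg adjustment, threshold 0.05). SE values are the absolute log2 fold change over the square root of F, CPM in the text is TMM-scaled, and positions use a prior count of 2. The biological coefficient of variation was 0.207, so spread between libraries rather than counting error limits most genes. A count of 0 allows up to 3 counts, 0.055 to 0.067 CPM here, and floors and count intervals cover counting error only.

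Alternatives were voomWithQualityWeights of limma 3.58.1, the study's own test, DESeq2 1.42.0, no filter or a stricter filter, RLE or upper-quartile factors, the replicate number as a block, all 17 libraries, and each library left out. Deviations from the group mean correlated at 0.54, 0.36 and 0.41 between libraries with the same number. Between libraries with other numbers the values ran from -0.46 to 0.25, the latter for Bap1flox replicate 2 and Bap1LysM replicate 3. Whether the numbers pair the libraries is not given in the labels. The main test uses no pairing, and fits blocked on the number are given beside it. Scripts were tested on simulated data. The 49 lists (35 of pathways, 14 of markers) and all other members were chosen with earlier results of these data known, and 4 lists were added after their values were seen. Genes named are Bap1, the lysozyme genes, the 12 most changed genes each way among called genes whose groups do not overlap, up to 6 called members per list by p, the genes the study names or that lead the preOC comparison, genes for which Bap1LysM replicate 1 lies within the Bap1flox range or on its other side, the 10 with the smallest interaction p, and list members named for their role. Some results are not reported here. Python 3.11.15, pandas 2.3.3, numpy 2.4.6 and matplotlib 3.10.9 made the summaries.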

Additional observations from a re-analysis of the deposited data

Results flagged for a closer look

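In BMMs, 23 genes were called with the opposite sign to that of a call in preOC replicates 4 to 6, as against 363 called with the same sign. Of the genes named by the rules of this comparison, P2ry14 had a log2 fold change of -2.0 in BMMs and 0.43 in preOCs, Gstt3 of -1.16 and 0.34, Btg2 of -0.90 and 0.56, and Srgn, which encodes the granule proteoglycan serglycin, of -0.81 and 0.50. The difference between these preOCs and BMMs was not tested, since no BMM library carries their replicate numbers. In preOC replicates 1 to 3 the log2 fold changes were -0.01 for P2ry14, 0.07 for Gstt3, 0.12 for Btg2 and 0.29 for Srgn. In replicates 1 to 3 the interaction of genotype and RANKL gave an adjusted p of 0.33 for each of these 4 genes.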

How the results depend on the processing

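Against the 693 calls (171 higher, 522 lower), voomWithQualityWeights gave 1772 (721, 1051), DESeq2 2065 (880, 1185), the replicate block 2107 (712, 1395), and a fit of all 17 libraries with a term for replicates 4 to 6 gave 2013 (1011, 1002). The share of higher genes was 24.7% in edgeR and 40.7%, 42.6% and 50.2% in voomWithQualityWeights, DESeq2 and the fit of 17 libraries. Leaving out a library gave 4 to 756 calls, 0 to 268 higher and 4 to 488 lower. Replicates 2 and 3 of both genotypes, a setting chosen after seeing the data, gave 1340 (284, 1056). Other factors and filters stayed within 1.5 times of 693, and all 693 kept their sign in each fit that tested them. Of the 24 leading genes, 24 passed with the block and in each tool on 6 libraries, 14 without Bap1LysM replicate 1, and 1 and 0 without Bap1flox replicates 2 and 3. Calls without Bap1LysM replicate 1 left 311 genes with the preOC sign, 240 of them called there.

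Reversed signs, whose cause was not tested, came with single libraries left out or with other settings. Over the fits that leave out a library, the log2 fold change of Gss ran from -0.26 to 0.14, of Itgb3 from -0.017 to 0.28, of Nfatc1 from -0.058 to 0.18, of Ctsk from -0.11 to 0.80, of Susd2 from -0.046 to 0.70, of Itgax from -1.14 to 0.60 and of Mmp12 from -1.59 to 0.66. The end with the reversed sign was the fit without Bap1LysM replicate 1 for Gss, Itgb3, Ctsk, Itgax and Mmp12. In replicates 2 and 3 of both genotypes the values were 0.10 for Gss, -0.12 for Itgb3, -0.27 for Ctsk, -0.96 for Itgax, -1.42 for Mmp12 and -0.11 for Slfn1, an interferon-stimulated gene. Itgax and Mmp12 were also -0.30 and -0.60 with the replicate block and -0.37 and -0.62 in voomWithQualityWeights, and Nfatc1 was -0.0050 with upper-quartile factors.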

Other observations

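Genes of the primary cilium, a list assembled after its values were seen, were mostly lower in Bap1LysM BMMs. Of 56 tested, 10 fell and 0 rose, 49 had a negative log2 fold change and the median was -0.42, where 4.01% of all genes fell. With the replicate block 17 fell and 1 rose, where 10.7% and 5.47% of all genes did. In 33 genes all of the Bap1LysM libraries lay below all of the Bap1flox libraries, where 17.8% of all genes did. Bbs9, of the BBSome that carries membrane proteins along the cilium, was at 12.2, 10.2 and 11.5 CPM in Bap1flox against 4.29, 4.46 and 4.12 CPM in Bap1LysM BMMs (-1.4 ± 0.13, edgeR adjusted p = 0.010). Bbs1, of the same complex, was at 3.27, 3.27 and 3.89 CPM against 1.56, 1.03 and 1.4 CPM (-1.39 ± 0.23, adjusted p = 0.026). The libraries of each genotype are close together for both genes.

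The intraflagellar transport genes Ift81, Wdr35 and Ift172 fell by 1.79, 1.36 and 0.53 on the log2 scale (adjusted p = 0.020, 0.021 and 0.036). Dync2li1, of the motor for return transport, was at 5.50, 5.02 and 5.31 CPM against 1.51, 1.71 and 1.34 CPM (-1.79 ± 0.18, adjusted p = 0.010). The transition zone gene B9d1 fell by 1.94 (adjusted p = 0.020). In preOC replicates 4 to 6 the same list had 35 lower and 2 higher genes of 55 measured, with a median of -0.81, where 18% of all genes were lower.

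Further members of the ID and SMAD feedback list, also assembled after its values were seen, were Id2, at 27.8, 27.1 and 25.1 CPM against 80.6, 45.3 and 30.5 CPM (0.96 ± 0.33, adjusted p = 0.13), Smad6, an inhibitor of BMP receptor signalling, at 3.47, 9.17 and 9.89 CPM against 24.8, 20.7 and 14.1 CPM (1.4 ± 0.41, adjusted p = 0.089), and Acvrl1, a receptor for BMP ligands, at 58.5, 50.7 and 50.9 CPM against 28.6, 18.4 and 19.2 CPM (-1.28 ± 0.18, adjusted p = 0.021). Of 21 genes of this list 2 rose and 1 fell. The 4th list added, of immunoglobulin constant genes, had 2 higher and 0 lower genes of 6. Of all genes 1.31% rose and 4.01% fell.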
